A study of Homo sapiens with 4 samples.

Results

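Cap-dependent translation and elongation factors were examined in LN229 cells, an established human glioblastoma line, with and without salmon calcitonin (sCT), a peptide ligand of the calcitonin receptor. All antibody rows to 4E-BP1, eIF4E, eIF4G, eEF2, eEF2K, Pdcd4, Mnk1 and YB1 were taken by name, which gave 10 of the 440 antibodies of a reverse phase protein array (RPPA). Of these 10, 7 recognise a total protein (4E-BP1, eIF4E, eIF4G, eEF2, eEF2K, Pdcd4 and Mnk1) and 3 a phosphorylated site (4E-BP1_pT37_T46, eIF4E_pS209 and YB1_pS102, where p and the residue name the site). RPPA spots every lysate at several dilutions and stains each slide with a single antibody. There were 2 samples of untreated LN229 cells (0 min) and 2 of LN229 cells given 300 nM sCT for 60 min, and all 4 came from the same line with no gene altered. No untreated sample was taken at 60 min. An effect of sCT and one of the time and handling over these 60 min thus cannot be told apart. The study calls them biological duplicates, but whether they came from separate cultures is not given in the sources used here, so the p-values measure the spread between these samples, which may be technical.

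Most mRNAs of growing cells are translated after eIF4F binds the cap at their 5′ end. In eIF4F, eIF4E holds the cap, eIF4G is the scaffold that brings in the helicase eIF4A and the ribosome, and the kinase Mnk1 docks on eIF4G and phosphorylates eIF4E at S209. 4E-BP1 competes with eIF4G for eIF4E until the kinase complex mTORC1 phosphorylates it, first at T37 and T46, and Pdcd4 blocks eIF4A. During elongation eEF2 moves the ribosome along the mRNA and its kinase eEF2K switches it off. Signalling through AKT and mTORC1 is often raised in glioblastoma.

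The deposited values are linear levels relative to a median, so that each sample had a median near 1 over the 440 antibodies, and a level compares samples for a given antibody but not antibodies with each other. Signal over background is unknown, so the sizes of log2 fold changes may not be comparable between antibodies. Between replicates the median SD of the log2 level was 0.05 untreated and 0.04 with sCT. For a single antibody, the exact permutation test of 2 against 2 samples cannot give a two-sided p below 0.333, so the tests rest on limma, which shares the spread over the panel. Of 5 loading control antibodies, 3 were higher after sCT and 0 lower at an adjusted p under 0.05 in limma. The shares over all 440 antibodies were 21.4% higher and 33.6% lower. The log2 fold changes of the loading controls ran from 0.04 to 0.57, and centring the samples on them shifted all antibodies by -0.18. For a named antibody whose call or direction this centring changes, the centred value is given beside its result. The markers below, the loading controls themselves and the other RNA-binding and translation proteins named near the end are exceptions. Of 8 markers of glioblastoma lines sought, Sox2, Vimentin, CD44 and EGFR were on the panel, and of 7 markers of other cell types CD45, CD4 and E-Cadherin were. The summed level of the 4 glioblastoma markers was 3.90 to 4.17 in untreated and 3.41 to 3.43 in sCT-treated cells, and that of the 3 others was 2.94 to 3.08 and 3.21 to 3.42, but on this scale a level does not show whether a marker was present. Of the 4, 1 was lower and 1 higher after sCT at an adjusted p under 0.05 in limma, so their sum hides opposite directions. Of the 3 others, 0 were lower and 0 higher. Both marker sets hold few antibodies to set against 33.6% lower and 21.4% higher over the panel.

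After sCT treatment the eIF4F scaffold eIF4G fell by 4.11 on the log2 scale, the eIF4E kinase Mnk1 by 1.57 and the eIF4A inhibitor Pdcd4 by 1.41. eEF2K fell by 0.51, 4E-BP1 by 0.34, phosphorylated YB1 by 0.28 and 4E-BP1_pT37_T46 by 0.23. The cap-binding protein eIF4E, its phosphorylated form and eEF2 did not pass the test. In all, 7 of the 10 antibodies were lower at an adjusted p under 0.05 in limma, against 33.6% of all 440 antibodies. None of the 10 was higher (0 also at an unadjusted p under 0.05), against 21.4% of the panel. Centring on the loading controls called 8 of the 10 lower, and moved the panel from 148 lower and 94 higher antibodies to 197 lower and 28 higher. The 2 groups did not overlap for 9 of the 10, all except eEF2, which is close to the 85.9% of the panel without overlap. The median log2 fold change was -0.31 over the 10 antibodies and 0.02 over the panel. An unequal-variance test on linear levels, which does not share the spread between antibodies, called 0 of the 10 after adjustment and had 4 of them at an unadjusted p under 0.05. Over the 440 antibodies the same test called 1 lower and 0 higher after adjustment and had 155 at an unadjusted p under 0.05.

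**Figure D1:**
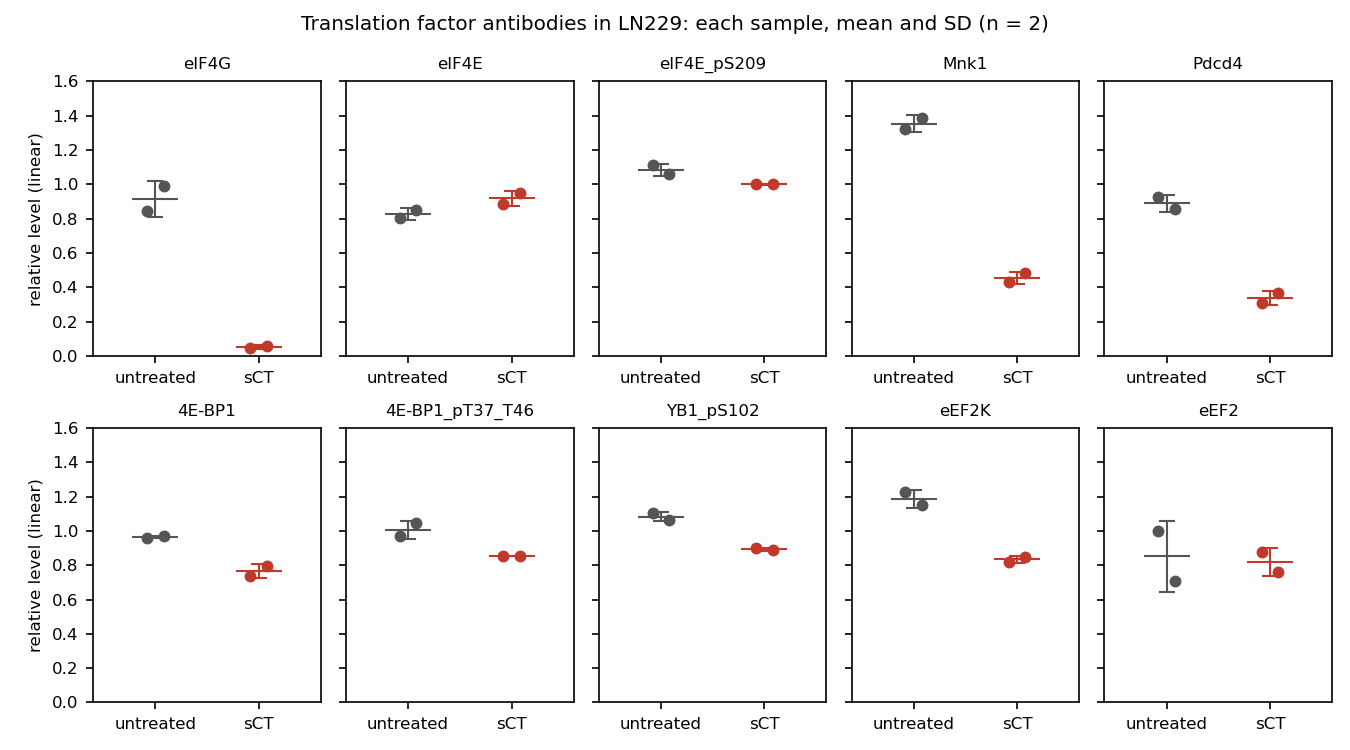
Relative level (linear, with each sample's median near 1) of the 10 translation factor antibodies in the untreated and sCT-treated samples. Points are samples, bars the mean and the SD of n = 2. The sCT samples of eIF4G lie near 0 and those of Mnk1 and Pdcd4 below 0.5, while eIF4E, its phosphorylated form and eEF2 stay close to the untreated samples.

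eIF4G was 0.842 and 0.990 in the untreated samples and 0.0459 and 0.0606 in the sCT-treated samples. Both sCT samples were thus far under both untreated samples, 17.3-fold lower in the fit. The means were 0.916 ± 0.105 (SD, n = 2) and 0.0533 ± 0.0104 (SD, n = 2), a log2 fold change of -4.11 (95% interval -4.53 to -3.69, adjusted p = 0.000141). It was the second lowest log2 fold change among the 440 antibodies. The sCT samples of eIF4G were 0.40 apart on the log2 scale, the third widest gap between sCT replicates on the panel. Quantile normalization, which gives all samples the same distribution of levels, left a log2 fold change of -2.23 (adjusted p = 0.00500). Each lysate pools many cells, so a lower level in every cell and a loss from some of the cells cannot be told apart.

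The cap-binding subunit itself did not pass the test. eIF4E was 0.801 and 0.852 in untreated cells and 0.888 and 0.950 after sCT. Both sCT samples were above both untreated samples, but the log2 fold change of 0.15 (95% interval -0.01 to 0.31) missed the threshold (adjusted p = 0.0902). It was 0.59 under quantile normalization (adjusted p = 0.0717) and -0.03 when centred on the loading controls (adjusted p = 0.783), so its direction depends on the scaling. eIF4E_pS209, the form phosphorylated by Mnk1 and its relative, was 1.11 and 1.06 in untreated cells and 1.003 and 1 after sCT. Its log2 fold change was -0.12 (95% interval -0.24 to 0.01, adjusted p = 0.0936), and with centring on the loading controls it was -0.30 and passed the test (adjusted p = 0.0129).

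Mnk1, the kinase of S209, was 1.32 and 1.39 in untreated cells and 0.430 and 0.481 after sCT. The groups were well apart, with means of 1.36 ± 0.0474 and 0.455 ± 0.0361 (SD, n = 2 each) and a log2 fold change of -1.57 (95% interval -1.76 to -1.39, adjusted p = 0.000169). It lay between -1.66 and -1.49 when any of the 4 samples was dropped. Quantile normalization left a log2 fold change of -1.08 (adjusted p = 0.00152). Set side by side on the log2 scale, the kinase changed by -1.57 and its site on eIF4E was at -0.12, with intervals that did not meet. Relative to total eIF4E the site changed by -0.27.

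Among the proteins that hold initiation back, Pdcd4, which blocks the helicase eIF4A, fell the furthest. It was 0.924 and 0.855 in untreated cells and 0.308 and 0.364 after sCT, a log2 fold change of -1.41 (95% interval -1.67 to -1.15, adjusted p = 0.000486). Quantile normalization reduced this to -0.65 (adjusted p = 0.00501). Total 4E-BP1, the repressor of eIF4E, was 0.961 and 0.969 in untreated cells and 0.735 and 0.794 after sCT. It was lower in both sCT samples, with a log2 fold change of -0.34 (95% interval -0.48 to -0.19, adjusted p = 0.00689) that ran from -0.18 under quantile normalization (adjusted p = 0.0486) to -0.52 with centring on the loading controls (adjusted p = 0.00262). 4E-BP1_pT37_T46, the sites of mTORC1, was 0.970 and 1.04 in untreated cells and 0.856 in both sCT samples. This fall of 0.23 on the log2 scale (95% interval -0.38 to -0.09, adjusted p = 0.0213) missed the threshold when untreated replicate 2 was dropped (-0.18, adjusted p = 0.0679), when either sCT replicate was (-0.23, adjusted p = 0.107 each) and under quantile normalization (-0.16, adjusted p = 0.152), and was -0.42 with centring on the loading controls.

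YB1 is an mRNA-binding protein that can displace eIF4F from the cap, and S102 is a site of AKT and RSK. Only its phosphorylated form was measured among these antibodies. YB1_pS102 was 1.10 and 1.07 in untreated cells and 0.898 and 0.887 after sCT. Both sCT samples were lower, with a log2 fold change of -0.28 (95% interval -0.40 to -0.16, adjusted p = 0.00674), which just missed the threshold without sCT replicate 2 (-0.27, adjusted p = 0.0512). With centring on the loading controls it was -0.47. Whether the protein or the phosphorylated share of it was lower cannot be told apart without a total antibody.

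In the elongation arm the kinase passed the test and its substrate did not. eEF2K was 1.22 and 1.15 in untreated cells and 0.820 and 0.848 after sCT, a log2 fold change of -0.51 (95% interval -0.65 to -0.37, adjusted p = 0.00173). Its call held with each replicate left out, with log2 fold changes from -0.55 to -0.46. Total eEF2 was 0.998 and 0.706 in untreated cells and 0.878 and 0.762 after sCT. Both sCT samples lay between the untreated samples, and the log2 fold change was -0.04 (95% interval -0.52 to 0.45, adjusted p = 0.865). The untreated samples of eEF2 were 0.50 apart on the log2 scale, rank 14 of 440 for the gap between untreated replicates, so a change of the size seen for eEF2K lay within the interval of eEF2. The log2 fold change of eEF2 was 0.33 under quantile normalization and -0.22 with centring on the loading controls. Its phosphorylated form, the product of eEF2K, was not analysed here.

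**Figure D2:**
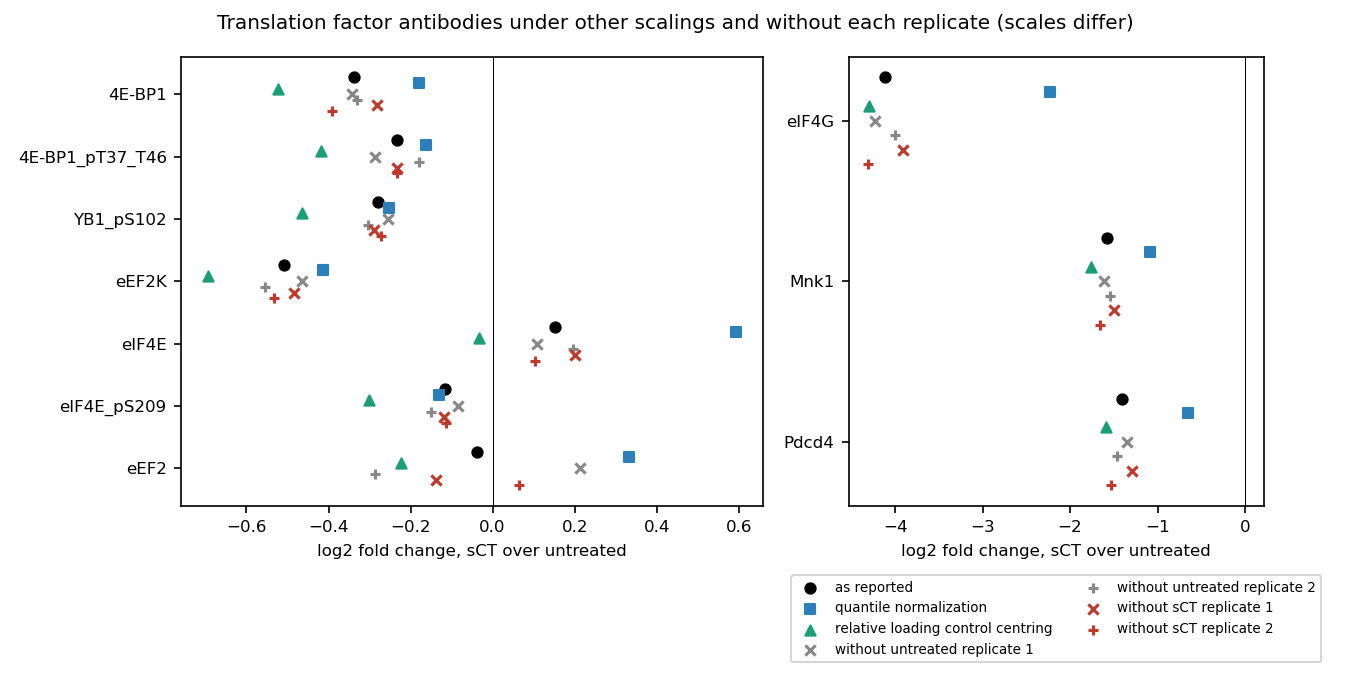
Log2 fold change (sCT over untreated) of the 10 antibodies as reported, after quantile normalization or centring on the loading controls, and without each replicate in turn, on separate scales for eIF4G, Mnk1 and Pdcd4. The 7 called antibodies stay below 0 under the settings plotted, while eIF4E and eEF2 lie on both sides of 0.

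Sites were then set against their own total antibody within each sample, which removes any scaling of a whole sample. The panel held 51 such pairs of 88 sites, some sharing a total row, and YB1_pS102 had none. For eIF4E the log2 level of the S209 form minus that of total eIF4E was 0.47 and 0.32 in untreated cells and 0.18 and 0.07 after sCT. The phosphorylated form was lower relative to total eIF4E in both sCT samples, by -0.27 (95% interval -0.48 to -0.06, adjusted p = 0.0294 over 51 pairs). Dropping untreated replicate 1 left -0.19 (adjusted p = 0.167) and dropping sCT replicate 2 left -0.22 (adjusted p = 0.166), neither of them called. Quantile normalization moved it to -0.72.

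For 4E-BP1 the T37/T46 form minus total 4E-BP1 was 0.01 and 0.11 in untreated cells and 0.22 and 0.11 after sCT. The difference between groups was 0.10 (95% interval -0.09 to 0.30, adjusted p = 0.245), so no change of the site relative to its total was detected, and a rise of up to 0.30 or a fall of up to 0.09 lay within the interval. Among all 51 pairs 39.2% passed the test as lower and 35.3% as higher after sCT, with a median of -0.06. A pair past the threshold was thus common on this panel. The pairs of ribosomal protein S6, which S6 kinase phosphorylates downstream of mTORC1, lay at -2.08 for S6_pS240_S244 (95% interval -2.38 to -1.78) and -1.37 for S6_pS235_S236 (95% interval -1.64 to -1.09), both outside the interval of 4E-BP1. The site of mTOR at S2448 lay at 0.16 relative to total mTOR (adjusted p = 0.0766).

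**Figure D3:**
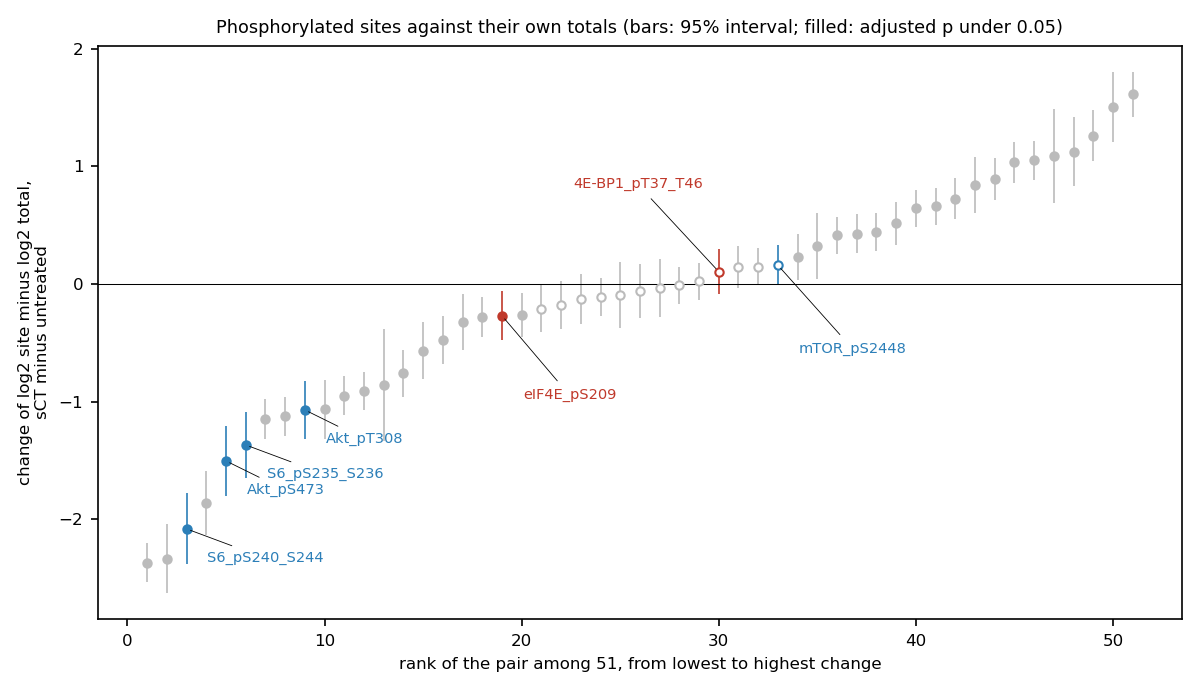
Change after sCT (sCT minus untreated) of the log2 level of a phosphorylated site minus the log2 level of its total protein, for 51 pairs in order of the change. Bars are 95% intervals from limma and filled points have an adjusted p under 0.05. The 4E-BP1 pair (0.10) lies near the middle, the eIF4E pair (-0.27) is slightly below 0, and the S6 pairs (-2.08 and -1.37) lie near the low end.

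The components of the cap complex were also set against eIF4E within each sample, as a description with no test. eIF4G minus eIF4E was 0.07 and 0.22 log2 units in untreated cells and -4.27 and -3.97 after sCT. 4E-BP1 minus eIF4E was 0.26 and 0.19 in untreated cells and -0.27 and -0.26 after sCT, a change of -0.49. The scaffold and the repressor that compete for eIF4E were both lower relative to it in each sCT sample. Mnk1 minus eIF4E changed by -1.73 and Pdcd4 minus eIF4E by -1.56. These differences are relative and do not give the ratio of molecules.

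Across the panel the 10 antibodies were spread widely. In order of the log2 fold change from the lowest of 440, eIF4G had rank 2, Mnk1 24, Pdcd4 31, eEF2K 94, 4E-BP1 126, YB1_pS102 131, 4E-BP1_pT37_T46 137, eIF4E_pS209 168, eEF2 197 and eIF4E 317. The 3 phosphorylated sites had log2 fold changes between -0.28 and -0.12. Over all 88 sites of the panel the median was -0.16, and over the 352 other antibodies it was 0.05.

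**Figure D4:**
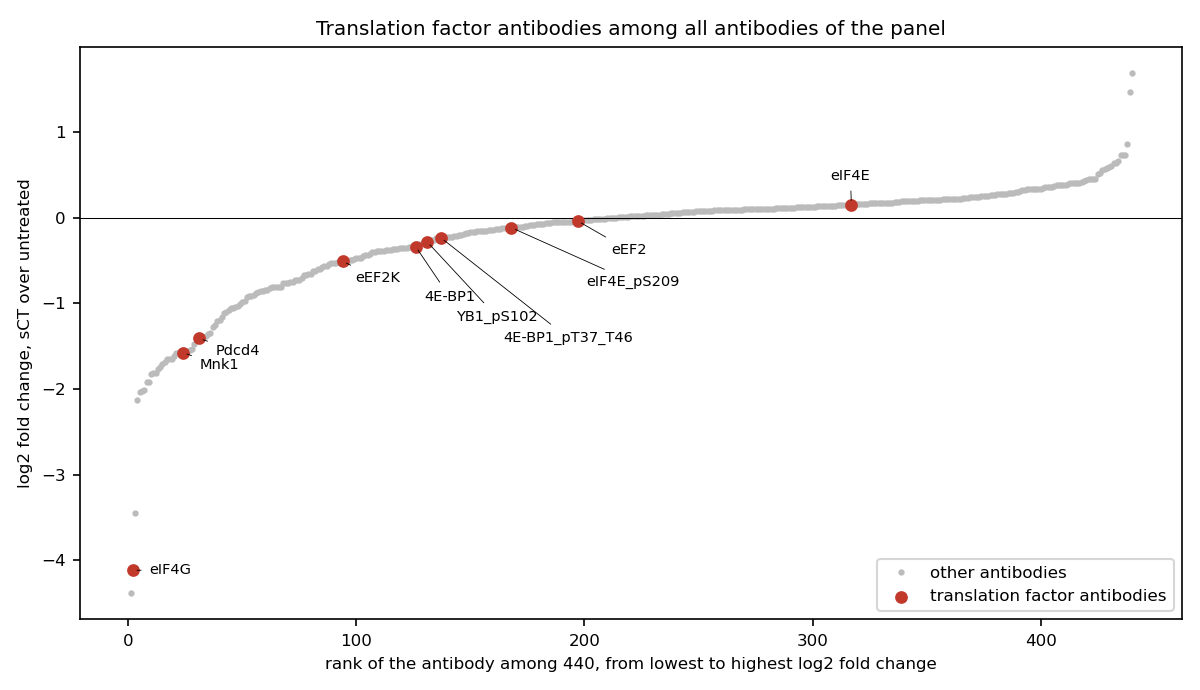
Log2 fold change (sCT over untreated) of all 440 antibodies in rank order, with the 10 translation factor antibodies in red. eIF4G is among the 3 antibodies below -3, Mnk1 and Pdcd4 are on the steep part of the curve, and eIF4E is above 0.

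For the 3 antibodies that changed by more than 1 log2 unit, the nearest antibodies over the 4 samples were found by Euclidean distance between log2 levels taken relative to the untreated mean. Myosin-IIa_pS1943, a site on the heavy chain of non-muscle myosin, was nearest to eIF4G at a distance of 0.47, followed by the chromatin remodelling subunit ARID1A at 0.97. The next was S6_pS240_S244 at 2.81, so only those 2 had a profile like that of eIF4G. Mnk1 had many close profiles, the nearest being the kinase RIP (0.04), the poly(ADP-ribose) glycohydrolase PARG (0.06) and the mitotic inhibitor kinase Wee1 (0.08). Nearest to Pdcd4 were ACC_pS79, the AMPK site of acetyl-CoA carboxylase (0.12), the mismatch repair protein PMS2 (0.14) and Bad_pS112, a site on a regulator of apoptosis (0.15). With 4 samples in 2 groups a short distance says little more than that the fold change was similar.

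Proteins of the signalling pathways upstream of these factors were counted from a list of 27 proteins, of which 21 were on the panel with 42 antibodies. The list also holds ribosomal protein S6 and the eIF2 branch of initiation, which are not upstream of these factors. Of the 42, 17 passed the test as lower and 9 as higher, and the median log2 fold change was -0.11, against 0.02 over the panel. Both counts are close to the shares of the panel, 33.6% lower and 21.4% higher, which are also the background of the counts by group. With centring on the loading controls 4 of the 42 were higher. Among mTORC1, its regulators and the mTORC2 subunit Rictor, 6 of 11 antibodies were lower and 0 higher. Rictor and its phosphorylated form Rictor_pT1135 (-0.29, adjusted p = 0.00689) were among the lower ones. The other 5, among them the mTORC1 inhibitor PRAS40 (0.15, adjusted p = 0.0555) and the subunit Raptor (0.11, adjusted p = 0.118), did not pass the test. With centring on the loading controls PRAS40 was at -0.04 and Raptor at -0.08, so their direction depends on the scaling. The GTPase-activating protein Tuberin (TSC2), which restrains mTORC1, had a log2 fold change of -1.11 (adjusted p = 0.00103), its partner TSC1 of -0.49 (adjusted p = 0.00462), the mTORC2 subunit Rictor of -0.71 (adjusted p = 0.000419) and mTOR itself of -0.53 (adjusted p = 0.000702). Quantile normalization took Rictor to -0.44. Relative to total Rictor, Rictor_pT1135 was higher after sCT, by 0.41 (adjusted p = 0.00163 over 51 pairs). Tuberin_pT1462, a phosphorylated site of Tuberin, did not pass the test (0.02, adjusted p = 0.754). With centring on the loading controls it was at -0.17 (adjusted p = 0.0697).

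In the S6 kinase arm 2 of 5 antibodies were lower, near the 33.6% of the panel. S6_pS240_S244 was 0.924 and 0.915 in untreated cells and 0.186 and 0.237 after sCT (log2 fold change -2.13, adjusted p = 0.000294), and quantile normalization left -1.20 (adjusted p = 0.00168). S6_pS235_S236 changed by -1.42 (adjusted p = 0.000303), a call that quantile normalization removed (-0.51, adjusted p = 0.0856). The activating site of the kinase, p70-S6K_pT389, had a log2 fold change of 0.05 (adjusted p = 0.330) and total p70-S6K1 one of -0.17 (adjusted p = 0.0790). With centring on the loading controls p70-S6K_pT389 turned to -0.13 and p70-S6K1 was called lower (-0.35, adjusted p = 0.0112). On the log2 scale the intervals of S6_pS240_S244 (-2.45 to -1.81) and of 4E-BP1_pT37_T46 (-0.38 to -0.09), both downstream of mTORC1, did not meet.

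In the PI3K-AKT input 6 of 14 antibodies were lower and 5 higher, beside 33.6% and 21.4% of the panel. Of the 5, Akt1 (0.0011, adjusted p = 0.988), PI3K-p110-b (-0.02, adjusted p = 0.842) and PI3K-p85 (-0.01, adjusted p = 0.884) were not called with centring on the loading controls. Akt_pS473 changed by -1.47 (adjusted p = 0.000523), Akt_pT308 by -1.04 (adjusted p = 0.000702) and Akt2 by -0.81 (adjusted p = 0.000486), the sites being those that activate AKT. Akt1_pS473 changed by -0.67 (adjusted p = 0.0359) and was no longer called when sCT replicate 1 was dropped (-0.59, adjusted p = 0.176), when sCT replicate 2 was (-0.76, adjusted p = 0.114) or under quantile normalization (-0.56, adjusted p = 0.0554).

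Mnk1 is activated by ERK and p38, and in the ERK, p38 and RSK input 2 of 7 antibodies were lower and 3 higher, with 33.6% and 21.4% over the panel. Phosphorylated ERK (MAPK_pT202_Y204) was 2.96 and 3.85 in untreated cells and 6.88 and 5.42 after sCT, a log2 fold change of 0.86 (adjusted p = 0.0132). The call rested on untreated replicate 1 (0.67 when it was dropped, adjusted p = 0.0549) and sCT replicate 1 (0.68, adjusted p = 0.0771), and was absent under quantile normalization (0.18, adjusted p = 0.322). Total ERK (p44-42-MAPK) rose by 0.38 (adjusted p = 0.00378), or 0.71 under quantile normalization and 0.20 with centring on the loading controls, while p38-MAPK-_pT180_Y182 changed by -0.56 (adjusted p = 0.00332). The RSK site p90RSK_pT573 changed by -0.76 (adjusted p = 0.0104) and was not called when sCT replicate 1 was dropped (-0.72, adjusted p = 0.0788) or when sCT replicate 2 was (-0.81, adjusted p = 0.0605). Phosphorylated ERK and phosphorylated p38 thus had log2 fold changes of opposite sign, and whether either bears on Mnk1 was not tested.

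AMPK activates eEF2K, and 1 of 3 AMPK antibodies was lower. AMPKa_pT172, the activating site, changed by -0.39 (adjusted p = 0.00982), but by 0.58 under quantile normalization (adjusted p = 0.0347), so its direction turns with the scaling. It lost its call without sCT replicate 1 (-0.34, adjusted p = 0.0702). Of the eIF2 arm, the branch of initiation that stress kinases control, only PERK and the chaperone BiP-GRP78 were on the panel. PERK was at -0.01 (adjusted p = 0.889), and at -0.19 with centring on the loading controls (adjusted p = 0.104). BiP-GRP78 was 0.850 and 0.871 in untreated cells and 1.09 and 1.08 after sCT, a rise of 0.33 (adjusted p = 0.00332) that was 0.15 with centring on the loading controls (adjusted p = 0.111).

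**Figure D5:**
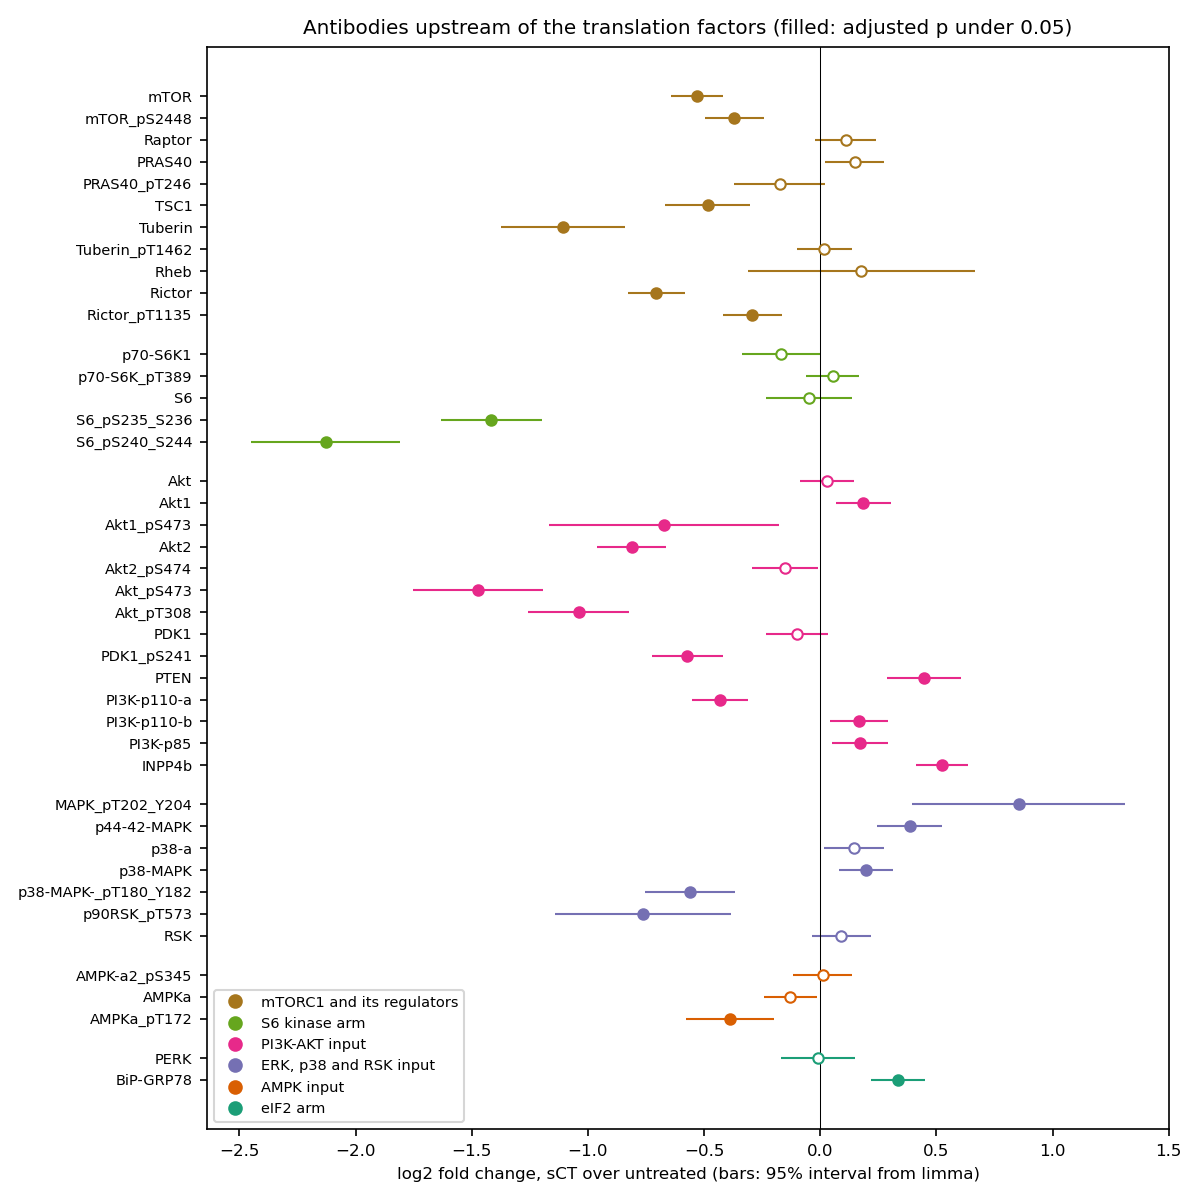
Log2 fold change (sCT over untreated) of the 42 antibodies of the upstream list, S6 and the eIF2 arm included, by group, with 95% intervals from limma. Filled points have an adjusted p under 0.05. The lowest values are those of the S6 sites (-2.13 and -1.42), Akt_pS473 (-1.47) and Tuberin (-1.11), and the highest is phosphorylated ERK (0.86).

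Proteins whose mRNAs are textbook examples of strong dependence on eIF4E were counted from a list of 10, of which 7 were on the panel. Of these 7, 3 were lower and 1 higher, few antibodies to set against 33.6% and 21.4% of the panel, with a median log2 fold change of -0.09. The oxygen-responsive transcription factor Hif-1-alpha was 1.89 and 1.75 in untreated cells and 1.29 and 1.41 after sCT, a log2 fold change of -0.43 (adjusted p = 0.00674), which was -0.16 under quantile normalization (adjusted p = 0.225). The short-lived apoptosis inhibitor Mcl-1 was 1.07 and 1.11 in untreated cells and 0.836 in both sCT samples, a log2 fold change of -0.38 (adjusted p = 0.00231). Cyclin-D3, a cyclin of the G1 phase, changed by -0.21 (adjusted p = 0.0289), and dropping any replicate gave an adjusted p from 0.0503 to 0.132. The apoptosis inhibitor Bcl-xL rose by 0.38 (adjusted p = 0.0138), a call that went when untreated replicate 1 (0.41, adjusted p = 0.0540), when untreated replicate 2 (0.35, adjusted p = 0.0782) was dropped and likewise for sCT replicate 2 (0.28, adjusted p = 0.0503), and with centring on the loading controls (0.19, adjusted p = 0.165). c-Myc (-0.09, adjusted p = 0.139), Cyclin-D1 (0.08, adjusted p = 0.230) and Bcl2 (0.14, adjusted p = 0.0553) did not pass the test. With centring on the loading controls c-Myc was called lower (-0.27, adjusted p = 0.0171), and Cyclin-D1 (-0.10) and Bcl2 (-0.05) changed direction without passing it. The members of this list did not move in a single direction.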

How the data were processed

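RPPA was performed on 4 LN229 lysates. The methods of the study describe serial dilution of each lysate, printing on nitrocellulose, staining by DAB and measurement of spot intensity. What the authors deposited are linear ratios, a level relative to a median for each antibody and sample, and the steps from spots to these ratios are not given in the sources used here. The series text states 441 proteins and 440 antibodies were analysed. Spot intensities were not used here, and the number of arrays limits the precision. Levels were transformed to log2 with no pseudocount and no filter, and compared between groups with the lmFit and eBayes functions of limma 3.58.1, run in R 4.3.3 (no covariates, 2 residual and 2.59 prior degrees of freedom), two-sided, with Benjamini-Hochberg adjustment over 440 antibodies. Site minus total differences were fitted in the same way over 51 pairs with the same base name. The steps were tested on simulated data.

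The antibodies were chosen by protein name, and they and the pathway, output, marker and loading control lists were written with earlier results of these data known. Of the lists, up to 4 antibodies per group with the largest change were named. In addition PRAS40, Raptor, Tuberin_pT1462, Rictor_pT1135, Akt1, PI3K-p110-b, PI3K-p85, c-Myc, Cyclin-D1, Bcl2 and the S6, mTOR and Rictor pairs were named after their values were seen. Relative loading control centring used the median, over 5 loading control antibodies (GAPDH, b-Actin, Vinculin, Cyclophilin-F and Porin, of 9 proteins sought), of the log2 level after subtracting that antibody's mean. The other alternatives were linear levels, median centring, quantile normalization, an unequal-variance test on linear levels and a trended robust eBayes. Further ones were omission of the 10% of antibodies with the lowest mean log2 level, leaving out each replicate and the replicate number as a block.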

Additional observations from a re-analysis of the deposited data

How the results depend on the processing

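Of the 10 translation factor antibodies, 7 were lower in limma, and 5 to 7 when a replicate was dropped, a fit in which the single remaining sample of a group takes its spread from the other group. The unequal-variance test on linear levels called 0 of the 10 lower, 0 upstream antibodies lower and 0 higher, and 0 of the eIF4E-sensitive proteins lower and 0 higher. It called only 1 of the 440 antibodies of the panel. The 9 upstream antibodies that were higher became 4 with relative loading control centring and 4 to 5 with a replicate left out. The 1 higher eIF4E-sensitive protein became 0 with relative loading control centring, 0 to 1 with a replicate left out, and 2 on linear levels or with trend and robust estimation. The eIF4E_pS209 pair, at -0.27, ran from -0.35 to -0.19 with a replicate left out.

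Labels give both groups the same replicate numbers. The deviations of the same-numbered samples from their group means correlated at 0.59 over antibodies, but with 2 pairs and no statement of a shared batch the samples share only a number. With the replicate block 7 translation factor antibodies were lower and 1 higher, eIF4E (0.15, adjusted p = 0.0426), phosphorylated ERK (MAPK_pT202_Y204, 0.86) was not called (adjusted p = 0.0593), and the eIF4E_pS209 pair had an adjusted p of 0.00168. Without the lowest 10% of antibodies eIF4G and Pdcd4 were not tested, and 5 of the 8 remaining were lower. Levels are relative, so a low mean over the 4 samples need not be a dim signal and can come from the sCT samples alone. Whether the low sCT levels of eIF4G lay near background is not known. This filter left 396 antibodies, of which 109 were lower and 94 higher. Quantile normalization called 6 of the 10 lower, with 115 lower and 103 higher over the panel. Over the panel 148 antibodies were lower and 94 higher, and dropping a replicate left 110 to 138 lower and 38 to 76 higher. Median centring, linear levels, and trend and robust estimation moved none of the 10 calls. The cause of these shifts was not tested.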

Other observations

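Other RNA-binding and translation proteins on the panel lie outside the factors above and were picked by name after their values were seen. RBM15, a subunit of the complex that writes N6-methyladenosine on RNA, was 0.978 and 0.992 in untreated cells and 0.256 and 0.304 after sCT, a log2 fold change of -1.82 (adjusted p = 0.000218 in limma). ADAR1, which edits adenosine in double-stranded RNA, was 1.12 in both untreated samples and 0.664 and 0.691 after sCT (log2 fold change -0.72, adjusted p = 0.000394). TUFM, the elongation factor of mitochondrial ribosomes, was 0.942 and 0.910 in untreated cells and 1.10 and 1.08 after sCT (log2 fold change 0.24, adjusted p = 0.0112). The splicing factor SF2 (0.17, adjusted p = 0.183) and the mRNA-binding protein MSI2 (0.08, adjusted p = 0.170) did not pass the test. Centring on the loading controls shifted all antibodies by -0.18, more than the values of SF2 and MSI2 and most of that of TUFM. The direction of SF2 and MSI2 thus depends on the scaling, and the call of TUFM is not shown to hold under this centring.

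Rheb, the GTPase that activates mTORC1, had a replicate pattern like that of eEF2. It was 1.03 and 0.730 in untreated cells and 1.06 and 0.907 after sCT, and its untreated samples were 0.50 apart on the log2 scale, rank 15 of 440. The log2 fold change of Rheb was 0.18 (adjusted p = 0.438 in limma) and -0.01 with centring on the loading controls (adjusted p = 0.969).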
